A study of Mus musculus with 16 samples.

Results

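The prostaglandin and leukotriene pathway was followed through 10 genes in 4 sorted mouse populations of phagocytes. The genes were selected by symbol, with earlier results of these data known, as those whose entry in the deposited gene count table was Ptgs1, Ptgs2, Ptges, Hpgds, Tbxas1, Ptger2, Ptger4, Alox5, Alox5ap or Ltc4s. All 10 were present among 45664 entries, and all 10 were among the 15754 genes with enough counts to be tested. The study sequenced bulk RNA from cornea macrophages, retinal microglia, brain microglia and bone marrow monocytes, with 4 libraries of each, to compare their expression profiles. All groups were C57BL/6 mice aged 8 to 10 weeks, and their sample labels name no transgene, deletion or treatment other than tissue handling. The extraction text attached to all 16 libraries goes against this: it describes ventral pons of CX3CR1-GFP mice after facial nerve axotomy, a reporter line and an injury that the titles and sources do not name. Cornea macrophages were sorted on CD45, CD11b, CD64 and F4/80, both kinds of microglia on CD45 and CD11b, and monocytes on CD45, CD11b, CD115 and Ly6C. A cornea or a retinal library was made from 10 pooled mice. The descriptions of the 8 brain and marrow libraries name retinal microglia against their own titles and sources, so their pool size is unknown.

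Prostaglandins, thromboxane and leukotrienes are short-lived lipid signals made from arachidonic acid that phospholipases cut from membranes. Cyclooxygenases turn arachidonic acid into a common intermediate, from which terminal synthases make prostaglandin E, prostaglandin D, prostacyclin or thromboxane, and these act on G protein-coupled receptors. In the other branch, 5-lipoxygenase with its activating protein makes leukotriene A, which is turned into leukotriene B or, by conjugation with glutathione, into the cysteinyl leukotrienes. Macrophages are a known source of both branches, and microglia are known for expressing the constitutive cyclooxygenase.

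Library totals ran from 8.68 to 21.8 mega-counts. Levels are given as CPM, the reads of a gene per mega-count of its library, with each library's total scaled by the trimmed mean of M-values (TMM), and as CPM per kilobase of gene length only where genes are set against each other. Marker sums followed the labelled populations. The summed level of 5 microglia markers (among them P2ry12 and Tmem119) was 1097 to 1314 CPM in cornea macrophages, 11146 to 14820.2 CPM in retinal microglia, 21678 to 24777 CPM in brain microglia and 11.3 to 14.2 CPM in monocytes. For cornea over retina, 1 of these 5 was called higher and 4 lower (30.9% and 35.1% of all tested genes). The sum of 5 tissue macrophage markers was 1780 to 2023 CPM in the cornea and at most 627 CPM elsewhere. For cornea over retina, 4 of them were called higher and 1 lower. The sum of 5 classical monocyte markers, among them the sort marker Ly6c2, was 9832 to 14225 CPM in monocytes and at most 67.6 CPM elsewhere. Genes of other cells were also present. The sum of 7 keratocyte markers (collagens, Lum, Kera and others) was 1388 to 2589 CPM in cornea libraries and at most 0.771 CPM elsewhere, and the sum of 8 photoreceptor markers was 742 to 6722 CPM in retinal libraries and at most 4.58 CPM elsewhere. In bulk libraries, fewer cells of a type and less RNA per cell cannot be told apart.

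Handling differed by tissue. The cornea was digested with collagenase D for 2 periods of 1.5 h at 37 °C, and the retina was dispersed mechanically in the cold. The protocol text does not reach the brain or the marrow, so digestion and population cannot be told apart. The column headers place 3 cornea, 4 retinal and 1 monocyte library in sequencer lane 2, and 1 cornea, 4 brain and 3 monocyte libraries in lane 3. Fits of lane 2 alone thus rest on 1 monocyte library and fits of lane 3 alone on 1 cornea library, and that lone library is assumed to vary like the other groups. Cornea libraries 1 and 2, retinal libraries 1 and 2, and retinal libraries 3 and 4 share a number in their titles, and nothing states that they came from separate pools. P-values therefore measure the spread between these libraries, part of which may be technical.

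The start regions of 4 of the genes are shown as examples: Ptgs1, Hpgds and Ltc4s were at their lowest in monocytes, and Ptgs2 was high in the cornea alone. Alox5 and Tbxas1 also had their lowest mean in monocytes, and Ptges, Ptger2 and Ptger4 also differed widely, but their regions are not shown. The sequences are from RefSeq on build GRCm38.p6, run 5′ to 3′ on the gene's own strand, and hold 250 bases before and 50 bases after the start. RefSeq gave such an entry for 9 of the 10 genes, Alox5ap being without one. Capitals mark the letters of 3 motifs searched on both strands: AGGAAGT (an ETS core, of the kind bound by the myeloid factor PU.1), TGACG (a cyclic AMP response half-site) and TTGCNNAA (a C/EBP site). The Ptgs1 region lies at chr2:36230176-36230475 (plus strand), the Ptgs2 region at chr1:150099781-150100080 (plus strand), the Hpgds region at chr6:65144681-65144980 (minus strand) and the Ltc4s region at chr11:50238483-50238782 (minus strand).
Ptgs1: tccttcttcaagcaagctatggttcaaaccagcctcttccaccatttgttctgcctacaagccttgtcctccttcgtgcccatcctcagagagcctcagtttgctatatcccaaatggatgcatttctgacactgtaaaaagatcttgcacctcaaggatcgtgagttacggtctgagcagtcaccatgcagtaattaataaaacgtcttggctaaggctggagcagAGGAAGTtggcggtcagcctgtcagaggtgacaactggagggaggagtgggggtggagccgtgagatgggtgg
Ptgs2: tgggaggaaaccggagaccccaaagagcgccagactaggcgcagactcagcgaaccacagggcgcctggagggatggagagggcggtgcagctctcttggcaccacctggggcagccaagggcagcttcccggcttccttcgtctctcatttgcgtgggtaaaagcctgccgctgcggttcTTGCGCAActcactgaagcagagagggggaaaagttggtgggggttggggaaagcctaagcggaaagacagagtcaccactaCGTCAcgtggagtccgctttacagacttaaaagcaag
Hpgds: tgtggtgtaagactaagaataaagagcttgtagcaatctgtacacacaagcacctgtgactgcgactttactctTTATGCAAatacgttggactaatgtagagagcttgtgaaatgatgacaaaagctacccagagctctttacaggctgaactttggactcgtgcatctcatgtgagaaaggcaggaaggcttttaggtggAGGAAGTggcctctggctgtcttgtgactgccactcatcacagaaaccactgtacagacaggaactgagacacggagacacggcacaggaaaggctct
Ltc4s: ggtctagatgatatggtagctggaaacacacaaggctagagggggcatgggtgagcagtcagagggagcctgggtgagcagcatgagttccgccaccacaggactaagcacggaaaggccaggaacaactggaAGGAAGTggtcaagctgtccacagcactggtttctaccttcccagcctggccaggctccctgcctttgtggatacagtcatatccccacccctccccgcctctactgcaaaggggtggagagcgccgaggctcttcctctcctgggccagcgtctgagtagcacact

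The ETS core was found in the start regions of Ptgs1, Hpgds and Ltc4s, beginning at positions -23, -48 and -117 from the start, and in 9.35% of 32851 mouse start regions of the same length. It was not found in those of Ptgs2, Ptges, Ptger2, Ptger4, Alox5 or Tbxas1. The cyclic AMP half-site was found in the Ptgs2 region at position 14 on the opposite strand, and in 20.8% of all start regions. The C/EBP letters read alike on both strands of Ptgs2 at position -69, were found in Hpgds at -176 and in Ptger2 at 40, and occur in 10.8% of all start regions. A match is a description of the letters and not of binding. Whether a motif goes with a pattern of levels was not tested.

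The cyclooxygenases were expressed in opposite ways in cornea macrophages and microglia. Ptgs2, the inducible cyclooxygenase COX-2 (chr1:150100031-150108227, plus strand, GRCm38), had 2979, 2716, 2409 and 2288 CPM in cornea macrophages, against 0.158, 0.390, 0.108 and 0.0402 CPM in retinal microglia, 0 in all brain microglia libraries and 0.135, 0.398, 0 and 0 CPM in monocytes. Every cornea library was thus high, and the cornea libraries held 124075 Ptgs2 counts, against 20 in the other 12 libraries together. The log2 fold change of cornea over retina was 13.82 (standard error, SE, 0.44; edgeR quasi-likelihood test, adjusted p = 3.752e-12), and that of cornea over monocytes was 14.27 (adjusted p = 4.431e-12). Without retinal library 2 the first was 14.68, and without monocyte library 2 the second was 15.14. Against brain microglia, where no count was found, Ptgs2 was at least 38600.1-fold higher in the cornea, with the brain set at a floor of 3 counts over the group. By level per kilobase, Ptgs2 ranked 159 of 15754 genes in cornea macrophages.

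Ptgs1, the constitutive cyclooxygenase COX-1 (chr2:36230426-36252272, plus strand), had 98.6, 91.0, 102 and 91.9 CPM in cornea macrophages, against 1397, 1265, 1354 and 1032 CPM in retinal microglia, 1386, 1189, 1452 and 1339 CPM in brain microglia and 80.0, 53.7, 53.2 and 50.4 CPM in monocytes. Both kinds of microglia stood far above the other populations and overlapped with each other. The log2 fold change of Ptgs1 was -3.72 (SE 0.16, adjusted p = 3.965e-12) for cornea over retina and -3.81 (adjusted p = 2.716e-12) for cornea over brain. It was 4.41 (adjusted p = 1.148e-12) for retina over monocytes and 4.50 (adjusted p = 6.788e-13) for brain over monocytes. Cornea over monocytes gave a smaller value of 0.69 (adjusted p = 0.000563), which was 0.02 when libraries were scaled by total counts alone and 0.28 within lane 2. Retina over brain gave -0.09 (SE 0.14, adjusted p = 0.774). By level per kilobase, Ptgs1 ranked 99 of 15754 genes in retinal and 93 in brain microglia. Platelets also carry Ptgs1 and Tbxas1. The sum of 7 platelet and megakaryocyte markers was 5.97 to 14.0 CPM in cornea, 10.1 to 22.9 CPM in retinal, 22.9 to 30.4 CPM in brain and 0.0709 to 0.812 CPM in monocyte libraries. Of the 7, 6 had counts in the cornea, 3 in the retina, 5 in the brain and 5 in monocytes. Gp9 made up nearly all of the sum in microglia (10.0 to 22.8 CPM in the retina and 22.1 to 30.3 CPM in the brain), where Ppbp was at 0, and Ppbp made up most of it in the cornea (5.19 to 11.3 CPM). The part of platelets in the Ptgs1 and Tbxas1 levels was not tested.

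Per kilobase, Ptgs2 made up 95.8 ± 0.506% (SD, n = 4) of the summed level of both cyclooxygenases in cornea macrophages, against 0.0114% in retinal microglia, 0% in brain microglia and 0.192% in monocytes. The summed level itself was 592 CPM per kilobase in cornea macrophages, 325 in retinal microglia, 345 in brain microglia and 15.3 in monocytes. The populations thus differed in which cyclooxygenase made up most of the RNA, and monocytes had little of either.

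**Figure D1:**
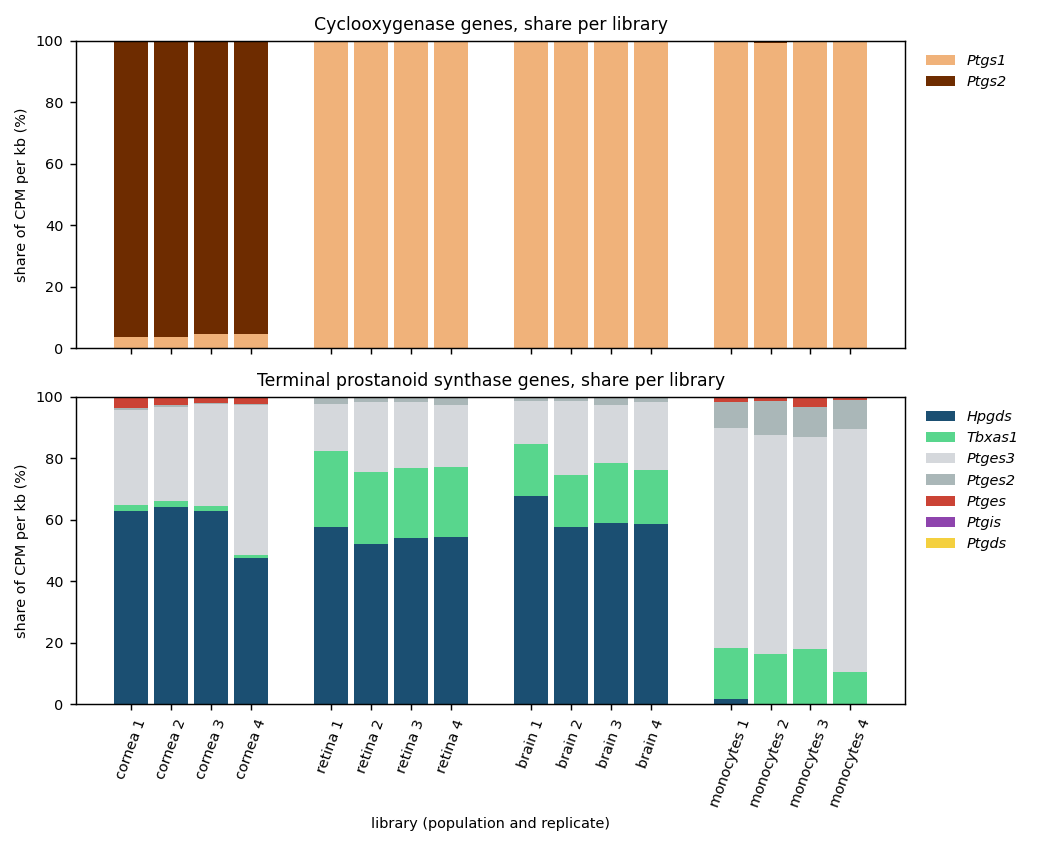
Shares of the summed level per kilobase by population (in percent): Ptgs1 and Ptgs2 among the cyclooxygenases, and the terminal synthases among themselves. By the mean of 4 libraries, Ptgs2 made up 95.8% in the cornea and Ptgs1 nearly all elsewhere. By the same mean and with the gene lengths of the count table, Hpgds made up more than any other synthase in the cornea, retina and brain. In cornea library 4, Ptges3 (48.7%) was above Hpgds (47.5%).

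Other genes were also higher in cornea macrophages than in the other populations. The summed level of 12 immediate-early genes (Fos, Jun, Egr1 and others, which respond within minutes to stimulation and to tissue dissociation) was 11456 to 13581 CPM in cornea macrophages, against 1083 to 2324 CPM in retinal microglia, 979 to 1361 CPM in brain microglia and 461 to 1443 CPM in monocytes. All 12 genes had counts in every population. Within the cornea, the sum was 11456, 13581, 12319 and 12489 CPM in libraries 1 to 4. Ptgs2 in the same libraries was 2979, 2716, 2409 and 2288 CPM. Corneal epithelial RNA was also present, with all 8 markers detected and a sum of 1378, 369, 633 and 234 CPM in cornea libraries 1 to 4, against at most 3.14 CPM in any other library. The part of other corneal cells and of the immediate-early response in the Ptgs2 level was not tested.

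Both RNAs annotated beside Ptgs2 were counted in the cornea as well. Ptgs2os, whose RefSeq start lies 157 bases before that of Ptgs2 on the opposite strand, had 6.45, 2.21, 4.07 and 6.30 CPM in cornea macrophages, with a log2 fold change of 6.03 over retina (adjusted p = 0.000186) and 7.45 over monocytes (adjusted p = 0.000116). All 5 retinal counts were in library 2 and the 1 monocyte count was in library 2, and without those libraries the fitted values were 9.04 and 9.11. Ptgs2os2 had 8.61, 9.53, 6.91 and 13.9 CPM in cornea macrophages and was at least 255.7-fold higher there than in retinal microglia, which had no count. In GENCODE, Ptgs2os lies at chr1:150074873-150099963 and Ptgs2os2 at chr1:150159043-150164948, both on the minus strand. Neither overlaps Ptgs2 as annotated there. Whether reads were counted by strand is not stated.

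Among the terminal synthases, Hpgds and Ptges were highest in the cornea and Tbxas1 in microglia, although Hpgds was not called over microglia with total counts alone. Hpgds, the hematopoietic prostaglandin D synthase (chr6:65117293-65144908, minus strand), had 1008, 1059, 1092 and 1143 CPM in cornea macrophages, against 412, 402, 514 and 399 CPM in retinal microglia, 549.8, 505, 465 and 432 CPM in brain microglia and 2.89, 0, 0 and 0.142 CPM in monocytes. All tissue populations were high and monocytes were near 0, with 66 counts in the 4 monocyte libraries, 64 of them in library 1. It was called higher in each of them, by 10.06 on the log2 scale (SE 0.64, adjusted p = 4.968e-10) for cornea over monocytes, 8.74 (adjusted p = 2.74e-09) for retina over monocytes and 8.92 (adjusted p = 1.881e-09) for brain over monocytes. The cornea exceeded the retina by 1.32 (SE 0.42, adjusted p = 0.011) and the brain by 1.14 (SE 0.42, adjusted p = 0.0236), without overlap of libraries. With total counts alone these became 0.53 (adjusted p = 0.256) and 0.46 (adjusted p = 0.319). For cornea over brain, lane as a further term gave 0.55 (adjusted p = 0.330), and the call also ended without brain library 3 (1.09) or 4 (1.08).

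Monocyte library 1, which held nearly all Hpgds counts of its group, also held genes of other marrow cells. The sum of 7 eosinophil and basophil markers was 51.7 CPM there, against 0.597, 3.83 and 1.63 CPM in monocyte libraries 2 to 4, with 732 counts of Prg2 and 129 of Epx. The list summed to 40.8 to 56.2 CPM in the retina and 30.8 to 57.7 CPM in the brain as well, where Siglecf made up 38.9 to 54.7 and 28.9 to 57.0 CPM and Prss34 was at 0. The part of such cells in the Hpgds counts was not tested. Without that library, the log2 fold change of Hpgds over monocytes was 13.99 for the cornea, 12.68 for the retina and 12.85 for the brain. Mast cells also make prostaglandin D. The sum of 9 mast cell markers was 4.07 to 12.9 CPM in the cornea, 0.0538 to 1.77 CPM in the retina, 0 in the brain and 12.5 to 30.9 CPM in monocytes, highest in monocyte library 1. In the cornea 5 of the 9 had counts: Hdc (3.28 to 9.09 CPM) and Kit (0 to 4.19 CPM) made up most of the sum, Cma1, Tpsab1 and Ms4a2 were each counted in a single library, and Cpa3, Mcpt4, Tpsb2 and Fcer1a were at 0. Hdc and Kit, the 2 that could be tested, were called higher in the cornea than in the retina and the brain. The part of mast cells in the Hpgds level was not tested.

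Ptges, the inducible prostaglandin E synthase that works downstream of COX-2 (chr2:30889471-30929863, minus strand), had 65.3, 47.7, 33.2 and 54.3 CPM in cornea macrophages, against 2.05, 0.731, 2.31 and 1.93 CPM in retinal microglia, 0.257, 0.102, 0.495 and 0.217 CPM in brain microglia and 3.34, 2.29, 5.65 and 2.41 CPM in monocytes. Cornea libraries lay above all others, and brain libraries below all others. The log2 fold change of the cornea was 4.84 over retina (SE 0.40, adjusted p = 1.258e-08), 7.52 over brain (SE 0.50, adjusted p = 6.914e-10) and 3.87 over monocytes (SE 0.38, adjusted p = 1.162e-07). Ptges was also higher in retinal than in brain microglia, by 2.68 (SE 0.51, adjusted p = 0.00234), and lower in brain microglia than in monocytes, at -3.64 (adjusted p = 7.256e-06). Retina over monocytes gave -0.96 (adjusted p = 0.0338), with overlapping libraries. The call ended without retinal library 2 (-0.70) or without monocyte library 1 (-0.98) or 3 (-0.64). It also ended with total counts alone (-0.85), without the filter (-0.93), with lane as a term (-0.89) and in a fit of the pair alone (-0.93).

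Tbxas1, thromboxane A synthase (chr6:38875404-39084585, plus strand), had 74.3, 81.0, 72.5 and 68.9 CPM in cornea macrophages, against 445, 454.5, 552 and 423 CPM in retinal microglia, 351, 375, 385 and 330.2 CPM in brain microglia and 73.5, 60.6, 69.9 and 52.1 CPM in monocytes. Microglia of both tissues were high, and cornea macrophages and monocytes overlapped at a low level. On the log2 scale, calls were made at -2.66 for cornea over retina (adjusted p = 1.97e-11), -2.28 for cornea over brain (adjusted p = 1e-10), 2.87 for retina over monocytes (adjusted p = 1.129e-11) and 2.49 for brain over monocytes (adjusted p = 4.848e-11). Each retinal library lay above each brain library, and that difference of 0.38 (SE 0.12) missed the threshold (adjusted p = 0.0595). Cornea over monocytes was 0.21 (adjusted p = 0.149), which turned to -0.47 (adjusted p = 0.0025) with total counts alone and to 0.30 (adjusted p = 0.0382) with the size factors of DESeq2.

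Per kilobase, Hpgds took 59.4 ± 7.96% of the summed level of 7 terminal synthases in cornea macrophages, 54.6 ± 2.35% in retinal microglia, 60.8 ± 4.66% in brain microglia and 0.433% in monocytes (SD, n = 4). Tbxas1 took 1.64 ± 0.359% in the cornea, 23.4 ± 0.864% in the retina, 17.7 ± 1.08% in the brain and 15.4 ± 3.34% in monocytes. Ptges took 2.54 ± 0.870% in the cornea, 0.203 ± 0.0792% in the retina, 0.0310 ± 0.0195% in the brain and 1.93% in monocytes, where the libraries ran between 1.13 and 3.40%. Ptges3, the cytosolic prostaglandin E synthase that is also the co-chaperone p23, made up much of the rest, with 35.8% in the cornea, 20.0% in the retina, 19.6% in the brain and 72.6% in monocytes. In cornea library 4, Ptges3 took 48.7% and Hpgds 47.5%. The shares depend on gene length: the count table gives Hpgds 3586 bases, and GENCODE vM21 gives it 6425 exon bases, which would lower its share. With that length and the other lengths unchanged, the cornea mean of Hpgds (300 CPM per kilobase here) would fall below that of Ptges3 (191).

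**Figure D2:**
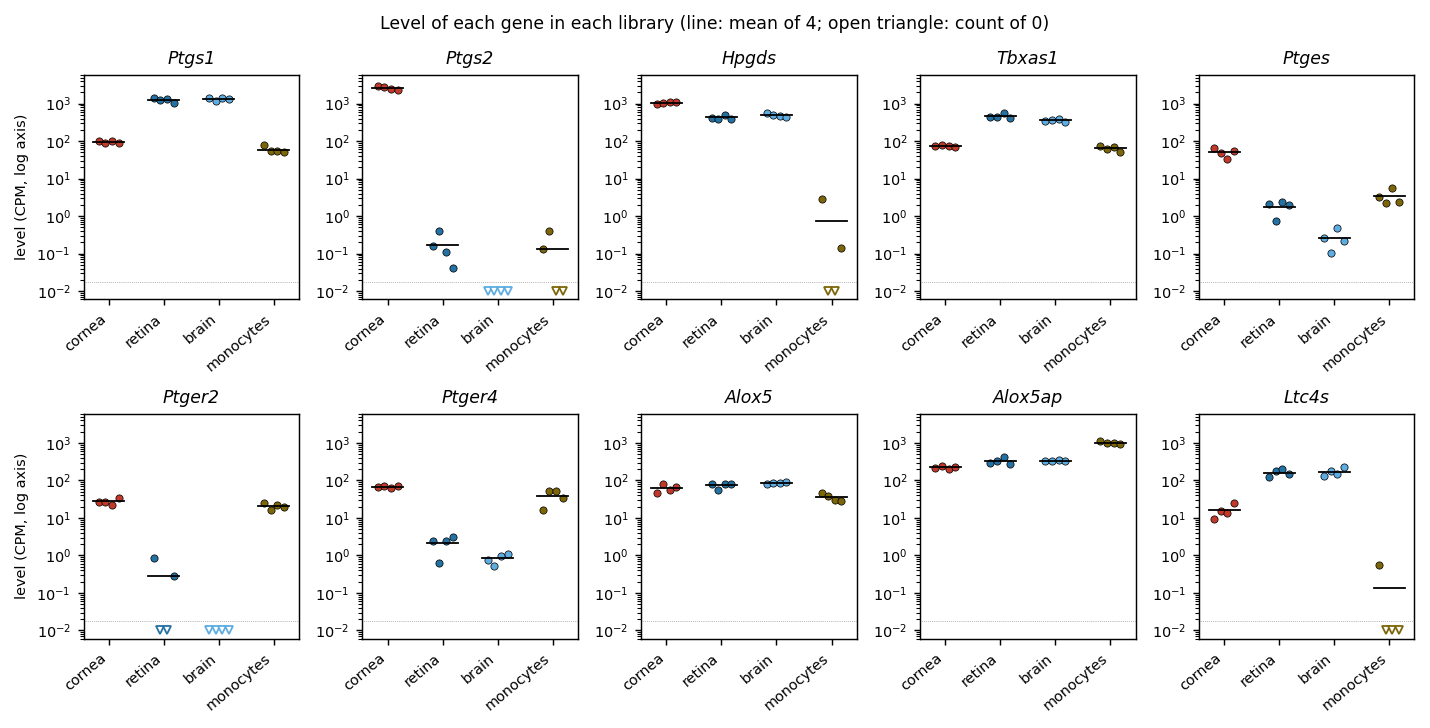
Level of each of the 10 genes (CPM, on the axis scale shown in each panel) in every library of cornea macrophages, retinal microglia, brain microglia and monocytes; points are libraries. Ptgs2 is high in the 4 cornea libraries, Ptgs1 in the 8 microglia libraries, and Alox5ap reaches 965 to 1141 CPM in monocytes.

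The receptors for prostaglandin E that raise cyclic AMP were shared by cornea macrophages and monocytes and were low in microglia. Ptger2, the EP2 receptor (chr14:44988195-45003820, plus strand), had 26.8, 26.7, 22.5 and 34.6 CPM in cornea macrophages, against 0.866, 0, 0 and 0.281 CPM in retinal microglia, 0 in all brain libraries and 25.4, 15.8, 22.0 and 19.6 CPM in monocytes. Cornea and monocyte libraries overlapped, and their difference was 0.42 on the log2 scale (adjusted p = 0.475). It was 6.75 (SE 0.69, adjusted p = 8.47e-07) for cornea over retina and -6.33 (adjusted p = 2.099e-06) for retina over monocytes. Without retinal library 1 these were 7.91 and -7.50. Against the brain floor of 3 counts, Ptger2 was at least 425-fold higher in the cornea, and it was at least 327.5-fold lower in the brain than in monocytes. Ptger2 shares 246 exon bases with Gm17173 on the opposite strand, which held 33 counts in all libraries together.

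Ptger4, the EP4 receptor (chr15:5206661-5244187, minus strand), had 68.8, 69.3, 62.7 and 72.5 CPM in cornea macrophages, against 2.44, 0.634, 2.42 and 3.10 CPM in retinal microglia, 0.771, 0.508, 0.990 and 1.09 CPM in brain microglia and 16.0, 52.2, 53.3 and 34.5 CPM in monocytes. The microglia libraries were all low, and with TMM each cornea library exceeded each monocyte library. With total counts alone, the cornea mean fell from 68.3 to 47.1 CPM, and cornea and monocyte libraries overlapped. Its log2 fold change was 4.99 for cornea over retina (SE 0.42, adjusted p = 1.779e-08), 6.31 for cornea over brain (SE 0.48, adjusted p = 3.893e-09), -4.17 for retina over monocytes (adjusted p = 1.742e-07) and -5.50 for brain over monocytes (adjusted p = 2.35e-08). Cornea over monocytes was 0.81 (SE 0.35, adjusted p = 0.0509). This call depended on the fit. It was passed without monocyte library 2 (0.98) or 3 (0.99), with lane as a term (1.34), with DESeq2 (0.89) or its size factors (0.89), without the filter (0.83) and in a fit of the pair alone (0.88). Without monocyte library 1, the lowest at 16.0 CPM, the value was 0.54 (adjusted p = 0.15), and it was 2.06 in lane 2, where that library is the sole monocyte library. Retina over brain was 1.33 (adjusted p = 0.0928). Exon bases of Ptger4 overlap those of 2 genes on the opposite strand. Ttc33, with 7016 counts in all libraries together, overlaps over 82 bases. Gm15937, with 2 counts in all libraries together, overlaps over 1015 bases.

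The leukotriene genes split between monocytes and microglia. Alox5ap, the 5-lipoxygenase activating protein FLAP (chr5:149264767-149288153, plus strand), had 215, 250.5, 207 and 228 CPM in cornea macrophages, against 298, 331, 433 and 281 CPM in retinal microglia, 334, 322, 357 and 334 CPM in brain microglia and 1141, 1019, 978 and 965 CPM in monocytes. Monocytes were highest in every library and the cornea lowest in every library. On the log2 scale, the difference was -2.19 for cornea over monocytes (SE 0.13, adjusted p = 2.74e-10), -1.61 for retina over monocytes (adjusted p = 1.63e-08) and -1.61 for brain over monocytes (adjusted p = 1.418e-08). Cornea over retina was -0.57 (adjusted p = 0.000854), cornea over brain was -0.58 (adjusted p = 0.000775), and retina over brain was -0.01 (adjusted p = 0.998). Per kilobase, Alox5ap ranked 572 of 15754 genes in the cornea, 149 in the retina, 156 in the brain and 50 in monocytes.

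Alox5, 5-lipoxygenase (chr6:116410077-116461178, minus strand), differed least of the 10 genes between its highest and lowest population means. It had 46.9, 81.0, 57.4 and 67.3 CPM in cornea macrophages, against 78.3, 55.4, 83.0 and 82.5 CPM in retinal microglia, 81.4, 84.4, 86.3 and 89.2 CPM in brain microglia and 45.1, 38.9, 30.4 and 28.6 CPM in monocytes. Monocytes were lowest in all libraries, and the cornea and the retina overlapped. Over monocytes, the log2 fold change was 0.82 for the cornea (SE 0.19, adjusted p = 0.000983), 1.06 for the retina (adjusted p = 0.000113) and 1.25 for the brain (adjusted p = 2.07e-05). With total counts alone, the value of cornea over monocytes became 0.14 and was no longer called, nor was it within lane 2 (0.45). Cornea over retina was -0.24 (adjusted p = 0.253), which became -1.04 (adjusted p = 5.8e-05) with total counts alone. Cornea over brain was -0.43 (adjusted p = 0.0466), and this call ended without cornea library 1 or 3 or without any single brain library (-0.46 to -0.34). It also ended with DESeq2 (-0.40) or its size factors (-0.40), without the filter (-0.43) and with lane as a term (-0.56).

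The ratio of the enzyme to its activator was lowest in monocytes. Per kilobase and with a pseudocount of 0.5, the log2 ratio of Alox5 to Alox5ap was -3.39 ± 0.24 in cornea macrophages, -3.70 ± 0.38 in retinal microglia, -3.51 ± 0.07 in brain microglia and -6.395 ± 0.21 in monocytes (SD, n = 4). No monocyte library overlapped with a library of another population in this ratio, while the tissue populations differed by less than the larger of their spreads.

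Ltc4s, leukotriene C4 synthase (chr11:50236461-50238616, minus strand), was highest in microglia of both tissues. It had 9.62, 15.2, 13.8 and 24.6 CPM in cornea macrophages, against 120.4, 175, 206 and 150.2 CPM in retinal microglia, 128, 175, 149 and 231.5 CPM in brain microglia and 0.541, 0, 0 and 0 CPM in monocytes. Retinal and brain libraries overlapped at the high end, the cornea lay below them and monocytes were near 0. In log2 terms, Ltc4s was at -3.35 for cornea over retina (SE 0.36, adjusted p = 3.386e-07), -3.42 for cornea over brain (adjusted p = 2.555e-07), 6.25 for cornea over monocytes (SE 0.55, adjusted p = 2.93e-08), 9.61 for retina over monocytes (adjusted p = 1.838e-10) and 9.68 for brain over monocytes (adjusted p = 1.31e-10). All 12 monocyte counts of Ltc4s were in library 1, and without it the fitted values over monocytes were 10.77 for the cornea, 14.12 for the retina and 14.20 for the brain. Ltc4s shares 268 exon bases with Gm26542 on the opposite strand, which held 387 counts in all libraries together. The counted length of Ltc4s was 736 bases, against 1014 exon bases in GENCODE vM21, so the shared bases may lie outside the counted ones.

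**Figure D3:**
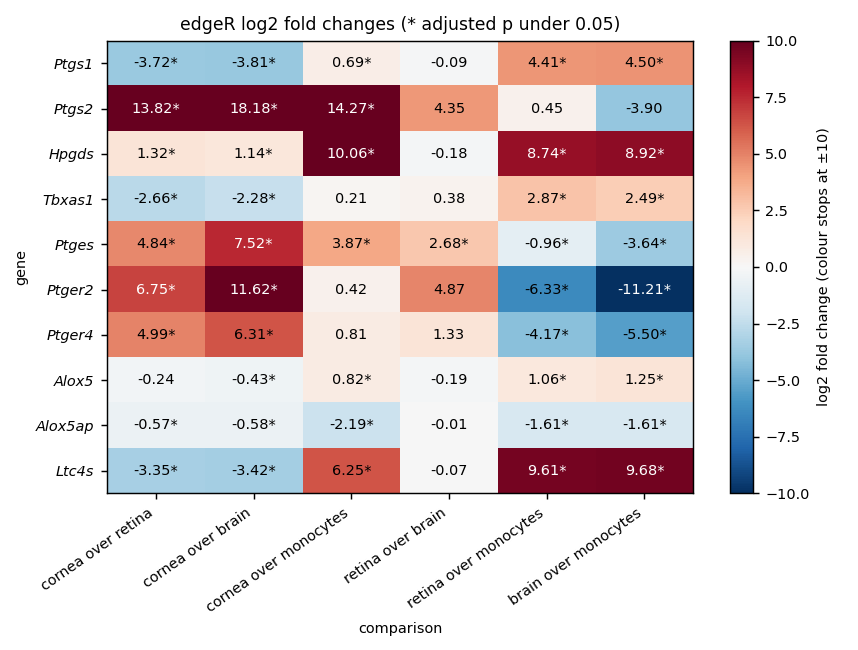
Log2 fold change of each of the 10 genes (edgeR, first over second population) in the 6 comparisons, with calls at an adjusted p under 0.05 marked. The retina over brain column is pale except for Ptges at 2.68 and genes with few counts, and the cornea columns carry Ptgs2 at 13.82 or more.

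Most genes of the table differed between most pairs, so the 10 genes are set beside all 15754 tested genes. For cornea over retina, 5 of the 10 were called higher and 4 lower, against 30.9% of all genes called higher and 35.1% lower (66% in all). Libraries did not overlap for 9 of the 10, against 59.1% of all genes, and the median absolute log2 fold change was 3.53 for the 10 and 1.22 for all. For cornea over brain, 5 were higher and 5 lower, against 33.8% and 33.1% of all genes (66.8% in all). All 10 were without overlap, against 62.4% of all genes, and the medians were 3.62 and 1.26. For cornea over monocytes, 6 were higher and 1 lower, against 32.2% and 31.1% (63.3% in all). Here 8 were without overlap, against 57.9%, and the medians were 1.50 and 1.16.

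Against monocytes, retinal microglia had 5 of the 10 genes higher and 4 lower, where 32.2% and 27.1% of all genes were called (59.3% in all). Of the 10, 8 were without overlap, against 55.2% of all genes, and the medians were 3.52 and 0.98. Brain microglia had 5 higher and 4 lower, where 28.5% and 27.4% of all genes were called (56% in all). Of the 10, 9 were without overlap, against 56.7% of all genes, and the medians were 4.20 and 0.96. In these 5 comparisons 7 to 10 of the 10 genes were called, near or somewhat above the shares of all genes. The median size of their changes was above that of all genes. The 10 genes were chosen with earlier results of these data known, so these medians are a description and not a test of the pathway.

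Retinal and brain microglia were the near pair. Ptges was the single gene called, higher in the retina, where 6.95% of all genes were called higher and 3.6% lower (10.5% in all), and the median absolute log2 fold change was 0.29 for the 10 genes and 0.34 for all. Tbxas1, Ptges and Ptgs2 did not overlap between the retinal and brain libraries, a separation shown by 18.1% of all genes. DESeq2 called 14.7% of all genes in this pair and 5 of the 10: Ptges, Ptgs2 (3.37, adjusted p = 0.0211), Ptger2 (3.95), Ptger4 (1.33, adjusted p = 0.0326) and Tbxas1 (0.37, adjusted p = 0.0145). Without retinal library 2, 3 of the 10 were called, where 8.37% of all genes were. Within lane 2 alone, 9 of the 10 genes were called for cornea over retina, where 53.0% of all genes were. With the single monocyte library of that lane, 6 were called for cornea over monocytes (32.6% of all genes) and 7 for retina over monocytes (28.1%). Within lane 3 alone, 9 were called for brain over monocytes (55.9% of all genes). With its single cornea library, 9 were called for cornea over brain (58.6%) and 7 for cornea over monocytes (54.5%). No lane holds both retinal and brain libraries. With lane as a further term, 463 genes (2.94%) were called between them in place of 1662, and Ptges was 2.78 (adjusted p = 0.0321). The 6 comparisons share libraries and are not independent of each other.

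The wider pathway comprised 46 further genes in 9 lists, of which 29 could be tested. For cornea over retina, 9 were called higher and 9 lower, where 66% of all genes were called. Calls were 11 higher and 10 lower for cornea over brain (66.8% of all genes), and 14 and 12 for cornea over monocytes (63.3%). They were 2 and 2 for retina over brain (10.5%), 10 and 11 for retina over monocytes (59.3%), and 11 and 12 for brain over monocytes (56%).

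For arachidonate release, all 6 tested genes of the list of 8 were called higher in the cornea than in monocytes, where 32.2% of all genes were called higher. Against the retina, 2 were higher and 1 lower in the cornea (30.9% and 35.1% of all genes). For cornea over monocytes, total counts alone moved the median log2 fold change of all genes by -0.67. Calls on small differences may thus depend on the scaling, as for Plaa (22.4 CPM per kilobase in the cornea and 16.4 in monocytes). Pla2g4a, the cytosolic phospholipase that acts ahead of both branches, averaged 133 ± 11.6 CPM in cornea macrophages, 120 ± 13.1 CPM in retinal microglia, 144 ± 15.5 CPM in brain microglia and 42.0 ± 2.11 CPM in monocytes (SD, n = 4). It was called higher than in monocytes in the cornea, retina and brain, by 1.66, 1.51 and 1.77 on the log2 scale. Pla2g15, a lysosomal phospholipase, averaged 233 ± 31.5 CPM in the cornea, 619 ± 28.1 CPM in the retina, 768 ± 79.5 CPM in the brain and 59.9 ± 8.88 CPM in monocytes. Pla2g2d, a secreted phospholipase, had 11.6, 5.70, 8.45 and 10.5 CPM in the cornea and was at least 230-fold higher there than in the retina. Pla2g5, another secreted phospholipase, had 2.52, 2.49, 0.484 and 6.67 CPM in retinal libraries 1 to 4 and no count in the brain, at least 51.0-fold higher in the retina (adjusted p = 0.00211). The photoreceptor sum in the same retinal libraries was 3160, 2041, 742 and 6722 CPM, and its part in the Pla2g5 level was not tested.

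For prostaglandin transport and breakdown, 5 of 6 genes could be tested, of which 1 was called higher and 3 lower in the cornea against the retina (30.9% and 35.1% of all genes). Hpgd, the dehydrogenase that inactivates prostaglandins, had 83.7, 94.8, 87.8 and 93.1 CPM in cornea macrophages, against 583, 560.4, 812 and 509 CPM in retinal microglia, 678, 748, 821 and 649 CPM in brain microglia and 119, 134, 162 and 188 CPM in monocytes. Microglia were above all other libraries and the cornea below all others. The log2 fold change of the cornea was -2.78 over retina, -3.01 over brain and -0.75 over monocytes (adjusted p = 2.699e-10, 9.722e-11 and 0.000609). Abcc4, which exports prostaglandins, averaged 26.4 ± 7.53 CPM in the cornea, 16.0 ± 9.62 CPM in the retina, 20.2 ± 2.75 CPM in the brain and 116 ± 10.3 CPM in monocytes.

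Of the 9 prostanoid receptor genes, 5 could be tested, Ptger2 and Ptger4 among them, and 3 were called higher and 1 lower for cornea over retina (30.9% and 35.1% of all genes), 3 and 2 for cornea over brain (33.8% and 33.1%), and none and 2 for cornea over monocytes (32.2% and 31.1%). For retina over brain none was higher and 1 lower (6.95% and 3.6%), for retina over monocytes none and 4 (32.2% and 27.1%), and for brain over monocytes 1 and 4 (28.5% and 27.4%). Ptgir, the prostacyclin receptor, had 17.2, 18.6, 14.4 and 10.7 CPM in cornea macrophages, 0, 0.0488, 0 and 0 CPM in retinal microglia, no count in the brain and 66.6, 91.8, 69.9 and 86.8 CPM in monocytes. Its log2 fold change was 9.45 for cornea over retina (adjusted p = 2.122e-10) and -2.37 for cornea over monocytes (adjusted p = 5.705e-07). The first rests on 1 retinal count, in library 2, and was 10.71 without it. Ptger3, the EP3 receptor, had no count in the cornea and 0.315, 0, 0.0538 and 0 CPM in the retina, against 10.4, 6.395, 6.34 and 12.5 CPM in brain microglia and 0, 0, 0.0912 and 0 CPM in monocytes. It was lower in retina than in brain, at -6.76 on the log2 scale (SE 0.95, adjusted p = 0.000372), which was -8.50 without retinal library 1 and -5.40 and not called with lane as a term (adjusted p = 0.997), and at least 150.4-fold lower in the cornea than in the brain. Ptger1, the EP1 receptor, averaged 15.4 ± 0.249 CPM in the cornea, 25.3 ± 3.98 CPM in the retina, 22.4 ± 2.77 CPM in the brain and 40.5 ± 5.95 CPM in monocytes. Ptgdr, a receptor of prostaglandin D, had no count in any library.

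Of 6 genes that export or convert leukotrienes, 5 could be tested, and 4 were called higher and 1 lower in the cornea against both the retina (30.9% and 35.1% of all genes) and the brain (33.8% and 33.1%). Abcc1, the exporter of leukotriene C4, had 513, 438, 511 and 445 CPM in cornea macrophages, against 60.0, 54.6, 31.9 and 40.8 CPM in retinal microglia, 46.3, 60.7, 42.1 and 55.0 CPM in brain microglia and 29.5, 44.8, 39.3 and 32.2 CPM in monocytes. All cornea libraries lay far above the rest, with log2 fold changes of 3.35 over retina, 3.22 over brain and 3.71 over monocytes (adjusted p = 2.407e-10, 3.388e-10 and 7.888e-11). Dpep1, a dipeptidase that turns leukotriene D4 into E4, had 31.5, 28.2, 31.4 and 44.5 CPM in the cornea and no count elsewhere, at least 887-fold above the retina, 525.8-fold above the brain and 663-fold above monocytes. Dpep2, a related dipeptidase, had 162, 176, 118 and 154 CPM in the cornea, at most 1.07 CPM in any microglia library and 26.98, 24.3, 33.7 and 25.5 CPM in monocytes. Its log2 fold change was 8.95 for cornea over retina and 2.47 for cornea over monocytes (adjusted p = 1.708e-09 and 8.411e-05). Without retinal library 2 the first became 12.46. Ggt5, which takes the step before, averaged 8.51 ± 3.335 CPM in the cornea, 38.5 ± 8.62 CPM in the retina, 45.9 ± 3.59 CPM in the brain and 1.81 ± 1.06 CPM in monocytes.

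On the leukotriene B side, monocytes stood apart. Lta4h, the hydrolase that makes leukotriene B4, averaged 33.4 ± 7.52 CPM in cornea macrophages, 61.2 ± 10.1 CPM in retinal microglia, 66.6 ± 1.75 CPM in brain microglia and 121 ± 26.7 CPM in monocytes. Ltb4r1, the high-affinity leukotriene B4 receptor, had at most 1.02 CPM in any cornea, retinal or brain library, against 106, 92.6, 92.1 and 104 CPM in monocytes, with log2 fold changes of -7.56 for the cornea, -8.99 for the retina and -7.70 for the brain over monocytes. Cyp4f18, which inactivates leukotriene B4, averaged 78.0 ± 21.7 CPM in the cornea, 34.0 ± 2.02 CPM in the retina, 0.852 ± 0.792 CPM in the brain and 310.1 ± 37.0 CPM in monocytes. It was higher in retina than in brain by 5.38 (SE 0.43, adjusted p = 7.01e-07). Cysltr1, a cysteinyl leukotriene receptor, averaged 44.8 ± 15.4 CPM in the cornea, 127 ± 8.42 CPM in the retina, 198 ± 10.7 CPM in the brain and 65.0 ± 11.7 CPM in monocytes. Its log2 fold change was -1.50 for cornea over retina and -2.14 for cornea over brain (adjusted p = 2.776e-06 and 4.186e-08). Retina over brain was -0.64 (adjusted p = 0.0352), a call that ended without any single library of the pair (-0.68 to -0.62). It also ended with total counts alone (-0.52), without the filter (-0.62) and with lane as a term (-0.23).

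**Figure D4:**
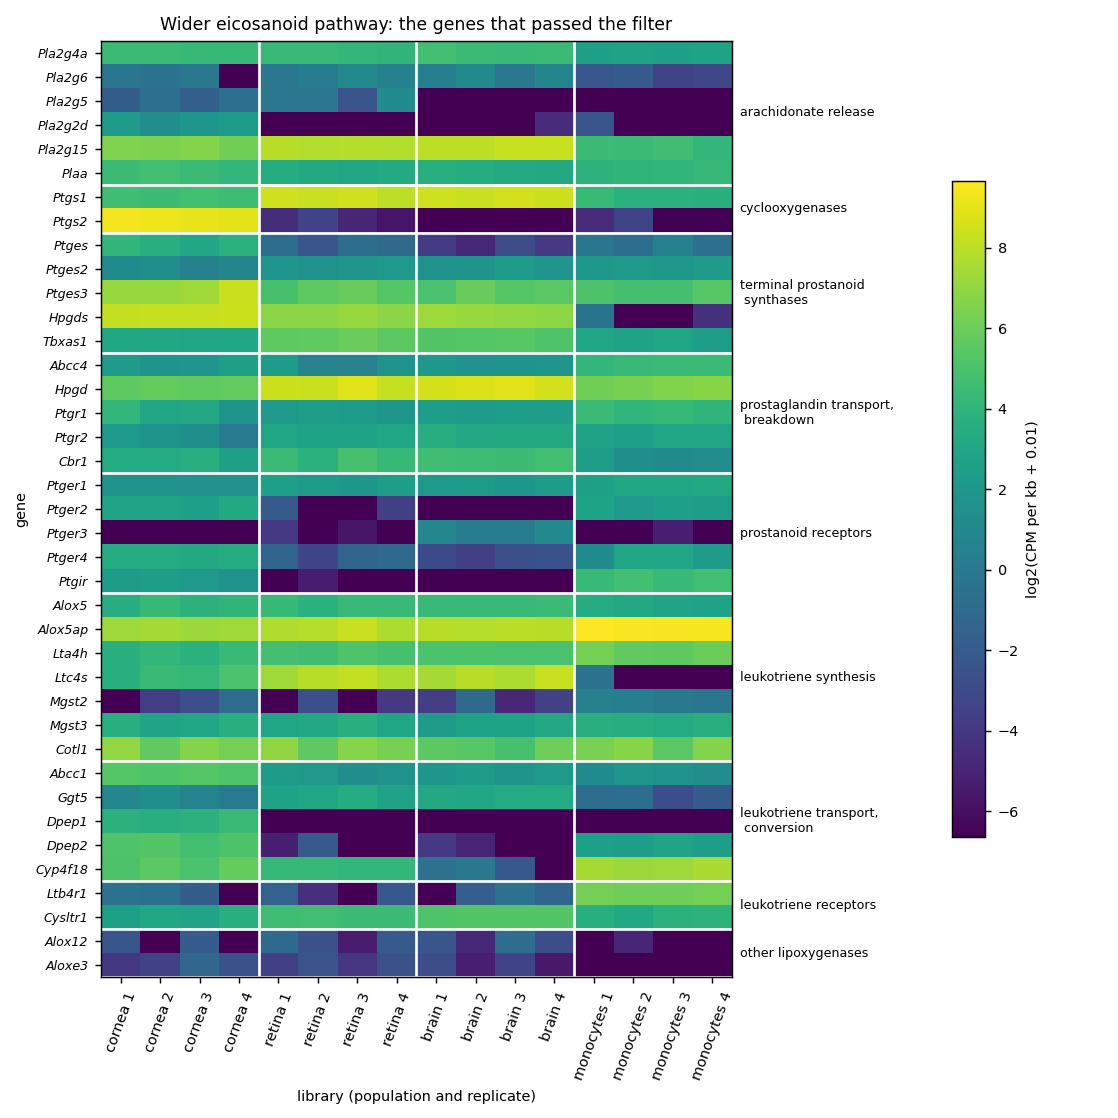
Level per kilobase (log scale, pseudocount 0.01 CPM per kilobase) of the 39 tested pathway genes in the 4 populations. Dpep1 and Ptgs2 are filled in the cornea alone, Ltb4r1 in monocytes, Ptger3 in brain microglia, and Hpgd and Ltc4s are strongest in both kinds of microglia.

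Over the 16 libraries, each gene was set beside the 3 tested genes with the highest Pearson correlation of log2 CPM. Those of Ptgs1 included Tmem119 (r = 0.995), a microglia marker, and Lrrc3 (0.994). Ptgs2 was most like Adh1 (0.996), Wbp5 (0.996) and A1cf (0.995). Hpgds was most like Pmp22 (0.994), Apbb2 (0.993) and Src (0.990), Ltc4s like Syngr1 (0.997), Trim47 (0.995) and Olfml3 (0.991), and Tbxas1 like Ctss (0.993), Dyrk4 (0.992) and Cd37 (0.992). Ptger2 was most like Ifi203 (0.995), and Ptger4 like Myof (0.986) with Ifi203 next (0.980). Ptges was most like Fam20c (0.981), Alox5ap like Ctage5 (0.989) and Alox5 like Map1lc3a (0.951). Among the 10 genes themselves, r was 0.987 for Ptgs1 with Tbxas1, 0.969 for Ptger2 with Ptger4, 0.888 for Ptgs2 with Ptges and -0.962 for Ptgs1 with Ptger2. The 16 libraries fall into 4 clusters by population, so these values describe likeness of pattern over 4 groups.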

How the data were processed

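RNA of 16 libraries was measured. The authors deposited read counts per gene, whole numbers without normalization, and, per the file headers, gene lengths in bases (unit other), used for values per kilobase. The submitters' processing notes name CASAVA 1.8.2, Subread, featureCounts, limma and build GRCm38.p4, without their roles; other tool versions, the annotation and any strand option were not given in the sources used here. Since the labels' extraction text describes another tissue and mouse line, kit and strand are uncertain. Symbols of 27 entries had been turned into dates (at most 0.223% of a library) and were left as separate entries; 16739 entries were 0 in all libraries.

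Groups follow the source labels, and replicate numbers follow the order of deposition. Genes were filtered with filterByExpr (minimum count 10), leaving 15754, and edgeR 4.0.16 (R 4.3.3) fitted the 16 libraries in 1 model with TMM factors and population as the single term. Each pair was tested by quasi-likelihood F test, Benjamini-Hochberg adjusted over all 15754 genes, and called at an adjusted p under 0.05. The SE was taken as the size of the log2 fold change over the root of its F statistic. TMM factors were 0.661 to 0.705 in cornea libraries and 1.07 to 1.25 in the others. Relative to TMM, total counts alone moved the median log2 fold change of all genes by -0.79 for cornea over retina, -0.67 for cornea over brain, -0.67 for cornea over monocytes, and 0.12 for retina over brain and retina over monocytes. Folds against a group without counts are lower bounds from a floor of 3 counts over the group; floors cover counting error only, and depth limits the precision of low genes. The script was tested on simulated data.

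Members and lists were chosen with earlier results of these data known. The text names all 10 members, the genes of fixed pathway lists reaching 1 CPM in some population, and the 3 genes most like each member; other genes named as markers are from fixed marker lists, 2 genes of which are not reported here and were left out of the marker sums. Coordinates are from GENCODE vM21 on GRCm38 and start regions from RefSeq. Exon overlaps are also from GENCODE, while counts and lengths are those of the deposited table. Its lengths of Hpgds, Ptger2 and Ltc4s were 3586, 3684 and 736 bases, against 6425, 5193 and 1014 exon bases in GENCODE. Alternatives were other scaling (DESeq2 size factors, total counts), no filter, DESeq2 1.42.0, lane as a term, fits of a pair alone, other pseudocounts, leaving out libraries, and, added after seeing the data, each lane alone. No columns of the count table were left unmapped.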

Additional observations from a re-analysis of the deposited data

Results flagged for a closer look

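Of 40 groups of 4 libraries (10 genes in 4 populations), 5 held a library that lay apart from the other libraries of its group by more than Dixon's 95% critical value for the gap over the range. Chance flags about 1 group in 20 where values are normally distributed. That rate does not hold for groups near 0, such as Hpgds and Ltc4s in monocytes. Ptgs2 and Ptger2 in the brain were 0 in every library and could not be flagged.

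In 3 of the 5 the library was monocyte library 1. It held 80.0 CPM of Ptgs1, against 53.7, 53.2 and 50.4 CPM in monocyte libraries 2 to 4. It held 2.89 CPM of Hpgds, against 0, 0 and 0.142 CPM, and 0.541 CPM of Ltc4s, against 0 in the other monocyte libraries. The same library had the highest sums of eosinophil and basophil markers (51.7 CPM among monocyte libraries) and of neutrophil and granule markers (3380 CPM, against 1679, 875 and 988 CPM), and it was the single monocyte library in lane 2. The part of these in the 3 values was not tested. Both other cases were in the retina: Hpgds at 514 CPM in retinal library 3, above 399 to 412 CPM in the rest, and Alox5 at 55.4 CPM in retinal library 2, below 78.3 to 83.0 CPM in the rest.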

How the results depend on the processing

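Of 960 alternative values for the log2 fold changes of the 10 genes, 893 kept their direction and side of the threshold, 30 lost and 21 gained a call, and 16 changed sign; of 535 for the other named fold changes, 511, 23, 0 and 1 did so. With total counts alone, sign changes were Tbxas1 (-0.47) and Ptger2 (-0.25) for cornea over monocytes and Ptgs1 (0.0298), Alox5ap (0.11) and Ltc4s (0.0477) for retina over brain, 2 of the 10 genes were called for retina over brain, and 18 of 40 levels moved by more than 1 SD. Alox5ap for retina over brain was 0.0174 without the filter and 0.00274 in a fit of the pair alone, and Ltc4s was 0.32 with lane as a term. Ptger2 for cornea over monocytes was -0.00849 within lane 2, and Cysltr1 was 0.0296 within lane 3. With libraries left out in turn, retina over brain ran from -0.154 to 0.071 for Alox5ap and from -0.21 to 0.11 for Ltc4s, and Ptgs2 for retina over monocytes from -0.41 (without retinal library 2) to 1.32. None of these values was called except Tbxas1; their causes were not tested.

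For retina over brain, DESeq2 called 5 of the 10 genes, 10 of the 39 tested pathway genes and 2315 of all genes, against 1, 5 and 1662, and lane as a term gave 463 genes and 3 pathway genes. With libraries left out, 1140 to 1657 of all genes and 1 to 3 of the 10 were called, 3 without retinal library 2 (1361 of all genes). Within lane 2, with its single monocyte library, 6239 genes were called for cornea over monocytes and 5378 for retina over monocytes, against 9980 and 9340. DESeq2 gave no adjusted p for Hpgds in any of the 6 comparisons. Scaling moved the split of all genes called: total counts alone gave 2924 higher and 8488 lower for cornea over retina (4862 and 5537 with TMM), 3564 and 7611 for cornea over brain (5317 and 5209), 3502 and 7535 for cornea over monocytes (5078 and 4902), and 1351 and 293 for retina over brain (1095 and 567). With a pseudocount of 2, the log2 ratio in brain microglia became -13.12 for Ptgs2 to Ptgs1 (-15.12 with 0.5) and 1.63 for Ptger4 to Ptger2 (3.41).

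Titles of 2 brain and 2 monocyte libraries share number ranges. With these as a replicate block, 8574 genes were called for brain over monocytes against 8817, and 9 of the 10 genes and 31 pathway genes were called. Deviations of same-numbered libraries correlated at -0.00964 and 0.0327 across genes, so the numbers do not show a pairing; other comparisons share no title numbers. Few counts limit the microglial values of Ptgs2, Ptger2, Ptges, Ptgir, Dpep2 and Ptgs2os and the monocyte values of Hpgds and Ltc4s.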
